A study of Homo sapiens with 12 samples.

Results

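The genes examined were 9 genes of late neutrophil granules and of the matrix metalloproteinase system, chosen by gene symbol: LTF, LCN2, CAMP, MMP8, MMP9, MMP2, MMP14, TIMP1 and TIMP2. All 9 had a row among the 20003 genes of the deposited expression tables. The values came from mRNA-seq of the human acute myeloid leukemia (AML) cell lines NB4, an acute promyelocytic leukemia line with the PML-RARα fusion, and Kasumi-1, a line with the t(8;21) fusion AML1-ETO. Each line had 3 control samples given DMSO and 3 samples incubated with 1 μM OGP46, a compound that the study tested as an inducer of differentiation, and the labels give 48 h for all 12 samples. The methods of the study give the same time, while the legend of its mRNA-seq figure gives a longer one and calls the data representative of independent experiments. Both models are single established lines grown in culture, and the labels do not say whether the 3 samples of a group were separate cultures or those experiments, so the tests measure the spread between these samples, which may be technical.

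Neutrophil granules are filled in order as the cell matures. Azurophil granules with myeloperoxidase and elastase are made at the promyelocyte stage, specific granules with lactoferrin, lipocalin and cathelicidin follow at the myelocyte and metamyelocyte stage, and gelatinase granules come last, and the leukemic fusions of both lines hold cells back at an early stage. Matrix metalloproteinases are made as inactive proforms that are cut to become active and are held in check by tissue inhibitors of metalloproteinases (TIMPs), which bind them in a tight complex. MMP9 is a gelatinase that is also made by monocytes and macrophages, so it is not proof of a granulocyte.

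Expression is given as FPKM, in which the fragments of a gene are divided by its exon length and by the total of its library, so levels can be set side by side between genes. FPKM hold no read counts, so depth is not known and intervals for counting error are not given. Summed over all genes, the FPKM came to 248207 to 310262 per sample, and between 9339 and 9746 genes per sample reached 1 FPKM. In NB4 cells the sums were 248207 to 256268 in the controls and 263341 to 291523 with OGP46. The identity of the lines was checked on 5 Kasumi-1 genes (RUNX1T1, KIT, CD34, POU4F1 and TRH), whose summed level was 237 to 299 FPKM in Kasumi-1 samples and 0.563 to 3.60 FPKM in NB4 samples. The promyelocyte genes MPO, ELANE, PRTN3, AZU1, CTSG and HGF were present in both lines, but all 6 were lower in untreated NB4 than in untreated Kasumi-1 cells, so they do not mark NB4. In addition, 1 control of each line stood apart. From 23 NB4 genes, not counting the 9 genes, Kasumi-1 control 2 carried 1.58% of the NB4 signal, against 0.205% to 0.313% in the other Kasumi-1 samples. From 20 Kasumi-1 genes, NB4 control 3 carried 1.26% of the Kasumi-1 signal, against 0.0742% to 0.312% in the other NB4 samples.

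Start-site windows from RefSeq (GRCh38.p14) were found for 6 of the 9 genes: LTF, LCN2, CAMP, MMP8, MMP14 and TIMP1. They run from 250 bases before to 50 bases after the start site. Shown are those of MMP14 and TIMP1, the genes called higher with OGP46 in NB4 cells, and of LCN2 and MMP8, late granule genes listed at 0 in nearly all samples. Each is written 5′ to 3′ on the strand of its gene, and capitals mark every match on either strand to the GC box (GGGCGG), the TATA box (TATAAA), the AP-1 motif (TGANTCA) or the C/EBP motif (TTGCNNAA). The windows lie at chr14:22836335-22836634 on the plus strand (MMP14), chrX:47582186-47582485 on the plus strand (TIMP1), chr9:128149203-128149502 on the plus strand (LCN2) and chr11:102724905-102725204 on the minus strand (MMP8).
MMP14: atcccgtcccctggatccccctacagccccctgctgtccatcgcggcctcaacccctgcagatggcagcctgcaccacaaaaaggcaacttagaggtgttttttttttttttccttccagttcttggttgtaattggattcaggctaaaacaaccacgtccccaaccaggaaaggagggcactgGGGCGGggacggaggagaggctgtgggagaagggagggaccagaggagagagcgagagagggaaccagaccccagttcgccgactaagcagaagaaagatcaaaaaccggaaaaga
TIMP1: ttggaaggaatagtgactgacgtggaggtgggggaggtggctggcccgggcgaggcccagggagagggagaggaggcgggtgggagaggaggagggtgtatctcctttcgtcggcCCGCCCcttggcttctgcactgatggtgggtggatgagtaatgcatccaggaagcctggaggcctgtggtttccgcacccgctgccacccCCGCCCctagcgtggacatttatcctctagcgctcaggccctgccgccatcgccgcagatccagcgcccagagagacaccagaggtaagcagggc
LCN2: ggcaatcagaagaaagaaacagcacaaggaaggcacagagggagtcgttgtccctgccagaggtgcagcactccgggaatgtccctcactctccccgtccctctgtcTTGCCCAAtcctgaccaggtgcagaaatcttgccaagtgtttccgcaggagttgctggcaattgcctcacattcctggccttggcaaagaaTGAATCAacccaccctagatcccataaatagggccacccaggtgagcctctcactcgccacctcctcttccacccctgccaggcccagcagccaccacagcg
MMP8: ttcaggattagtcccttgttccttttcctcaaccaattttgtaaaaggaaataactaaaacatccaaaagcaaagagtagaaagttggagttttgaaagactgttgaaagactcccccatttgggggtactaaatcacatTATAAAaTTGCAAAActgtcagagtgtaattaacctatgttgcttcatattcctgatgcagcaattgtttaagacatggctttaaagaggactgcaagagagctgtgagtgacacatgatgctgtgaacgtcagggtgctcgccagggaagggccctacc
The MMP14 window held a GC box starting at position -66 from the start site, and the TIMP1 window held GC boxes starting at -135 and -45. The LCN2 window held an AP-1 motif starting at -52 and a C/EBP motif starting at -143. In the MMP8 window, a TATA box started at -110 and a C/EBP motif at -103, and the CAMP window held none of the 4 motifs. Of all 35116 windows of this length, 45% held the GC box, 11.5% the TATA box, 7.71% the AP-1 motif and 10.5% the C/EBP motif, so the GC boxes of MMP14 and TIMP1 are a common feature. LTF has 3 start sites in RefSeq, and their windows are not shown. A match is a run of letters, not a site that was measured.

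The first question was whether proteins of the specific granules were expressed in either line and with OGP46. LTF encodes lactoferrin, an iron-binding protein of specific granules, and lies at chr3:46435645-46485234 (GENCODE 29, GRCh38). It was listed at 0 in 11 of 12 samples and at 0.0122 FPKM in Kasumi-1 control 2. LCN2 (chr9:128149071-128153455), which encodes the lipocalin that binds bacterial siderophores and can be bound to MMP9, was listed at 0 in all 12 samples. MMP8 (chr11:102711795-102727050), the neutrophil collagenase stored in specific granules, was listed at 0 in 11 samples and at 0.0123 FPKM in NB4 OGP46 sample 1. None of these 3 genes passed the filter of a mean of 0.1 FPKM in any comparison, so none was tested. An FPKM of 0 says that a gene was listed at 0, not that it is absent.

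CAMP (chr3:48223347-48225491) encodes the antimicrobial peptide cathelicidin. In NB4 cells it was listed at 0.111, 0.202 and 0.525 FPKM in the controls 1, 2 and 3 and at 0.111, 0.448 and 0.237 FPKM in OGP46 samples 1, 2 and 3. In Kasumi-1 cells it was listed at 0.116 FPKM in control 3 and at 0.122 FPKM in OGP46 sample 1, and at 0 in the other 4 samples. The NB4 groups overlapped fully. The log2 fold change on the log2(FPKM + 0.1) scale was -0.01 (SE 0.47, limma adjusted p = 0.988), with a 95% interval of -1.08 to 1.06, so a change within that interval was not detectable at this level and spread. In Kasumi-1 cells CAMP was under the filter.

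**Figure D1:**
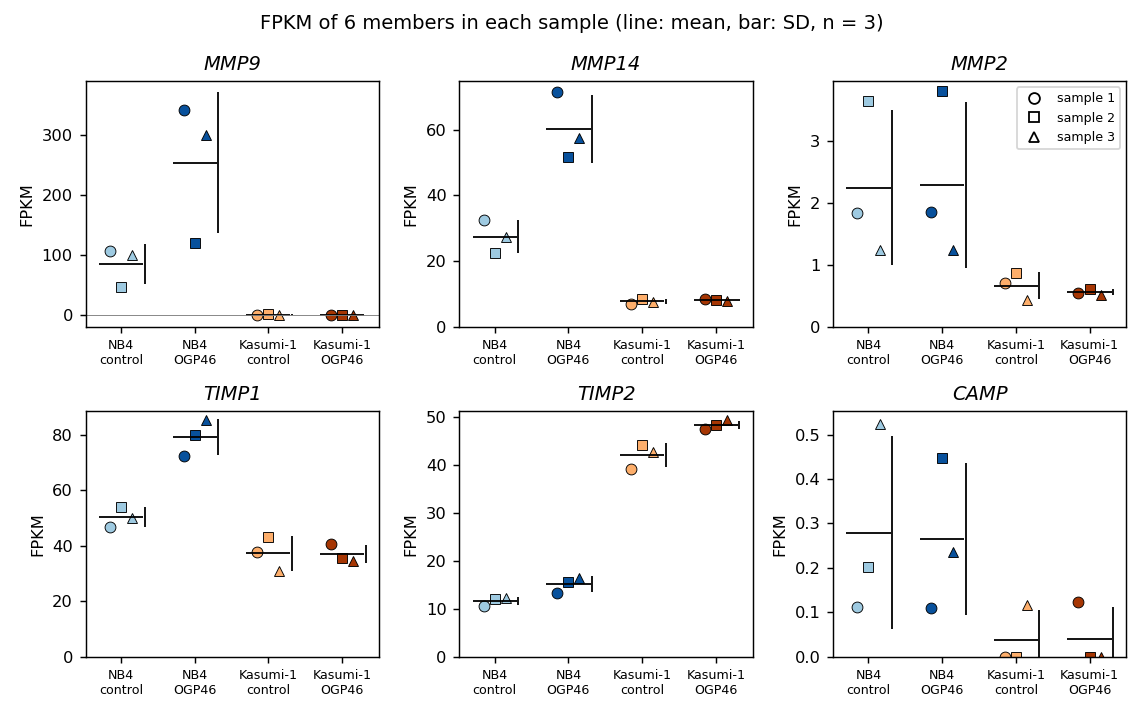
FPKM of MMP9, MMP14, MMP2, TIMP1, TIMP2 and CAMP (vertical axes, each with its own linear scale) in the 12 samples, by group on the horizontal axis. Points are samples, with circle, square and triangle for sample numbers 1, 2 and 3, horizontal lines are means and vertical bars are SDs (n = 3). MMP9, MMP14 and TIMP1 in NB4 cells with OGP46 lie above all other groups, TIMP2 is the only one of the 6 that is higher in Kasumi-1 cells, and sample number 2 is the lowest NB4 sample of its group for MMP9 and MMP14 and the highest for MMP2.

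The next comparison was OGP46 against control in NB4 cells. MMP14 and TIMP1 rose, MMP9 had the largest fold change of the 9 genes but passed the test over all 6 samples only when same-numbered ones were compared, and MMP2 was at 0.990 to 1.04 times its control in the 3 pairs. A gene was called when its Benjamini-Hochberg adjusted p from limma, over all 11750 genes tested, was below 0.05 and the log2 fold change reached 0.58 in either direction (1.49-fold). By this rule 2 of the 6 tested genes were called higher and 0 lower, while 1.45% of all genes tested were called higher and 0.111% lower. The labels number the samples 1 to 3 but do not say that equal numbers are pairs. Same-numbered samples tended to depart from their group means together in these data, least clearly for number 3. They are therefore called pairs here, and the number was used as a block in an alternative fit. With this block 3 of the 6 were called higher, beside 5.06% of all genes tested. Over all genes tested, the log2 fold changes had a median of 0.18, and changes are also given relative to it. Over the 6 genes the median was 0.51, and 4 of them (MMP9, MMP14, TIMP1 and TIMP2) were higher in all 3 pairs, as were 52.9% of all genes tested.

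MMP9 (chr20:46008908-46016561) encodes gelatinase B, the enzyme of gelatinase granules. In the NB4 controls 1, 2 and 3 it was at 107, 47.0 and 100.2 FPKM, a mean of 84.7 ± 32.8 (SD, n = 3). With OGP46 it was at 341, 121 and 299 FPKM in samples 1, 2 and 3, a mean of 254 ± 117 (SD, n = 3). The groups did not overlap, but the lowest sample with OGP46 was close to the highest control, and in both groups it was sample 2 that was low. Within pairs of the same number, MMP9 was 3.19-fold, 2.57-fold and 2.99-fold higher with OGP46, so the fold was alike while the level was not. The log2 fold change was 1.54 (SE 0.43), or 1.36 relative to the median of all genes. Without the block the limma adjusted p was 0.0796 and MMP9 was not called, and with the block the SE was 0.08 and the adjusted p 1.08e-06. By mean level it moved from rank 453 to rank 157 among the 20003 genes of NB4 cells. Its exons overlap those of the antisense gene SLC12A5-AS1, and the sources used here do not say whether fragments were assigned by strand.

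MMP14 (chr14:22836557-22849027) encodes MT1-MMP, a membrane-bound metalloproteinase that cuts collagen at the cell surface and activates the proform of MMP2. It was at 32.4, 22.3 and 27.3 FPKM in the NB4 controls 1, 2 and 3 and at 71.6, 51.5 and 57.6 FPKM with OGP46. Every sample with OGP46 was above every control, and again sample 2 was the lowest of each group. The mean went from 27.3 ± 5.06 to 60.2 ± 10.3 FPKM (SD, n = 3), with folds of 2.21, 2.31 and 2.11 in the 3 pairs. The log2 fold change was 1.14 (SE 0.16, limma adjusted p = 0.0289), or 0.96 relative to the median of all genes. MMP14 moved from rank 1571 to rank 749 by mean level.

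TIMP1 (chrX:47582313-47586789) encodes a secreted inhibitor that binds active MMP9 as well as its proform and also acts as a growth factor on blood cell precursors. It was at 47.0, 54.1 and 50.1 FPKM in the NB4 controls 1, 2 and 3 and at 72.6, 80.0 and 85.5 FPKM with OGP46. The groups did not overlap, and sample 2 did not stand apart. The log2 fold change was 0.65 (SE 0.09, limma adjusted p = 0.0281), or 0.48 relative to the median of all genes, which is below the size required for a call. TIMP1 lies within the gene SYN1, which is on the other strand and shares no exon with it.

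The calls of MMP14 and TIMP1 were narrow without the block. Each was lost when any 1 of the 3 controls, OGP46 sample 1 or OGP46 sample 3 was left out, with adjusted p of 0.050 to 0.134 over these 5 fits, and each was kept without OGP46 sample 2, where MMP9 was called as well (log2 fold change 2.00, adjusted p = 0.0270). Without the block, neither MMP14 nor TIMP1 was called after scaling to TPM-like values (limma adjusted p = 0.0996 and 0.0916) or after median centring (0.155 and 0.159). When pairs were compared, MMP9 and MMP14 were also called after scaling to TPM-like values (log2 fold changes 1.41 and 1.01) and after median centring (1.32 and 0.92), whereas TIMP1, at 0.53 and 0.43, was below the required size. The direction of MMP9, MMP14, TIMP1 and TIMP2 in NB4 cells was upward under all 17 alternatives.

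**Figure D2:**
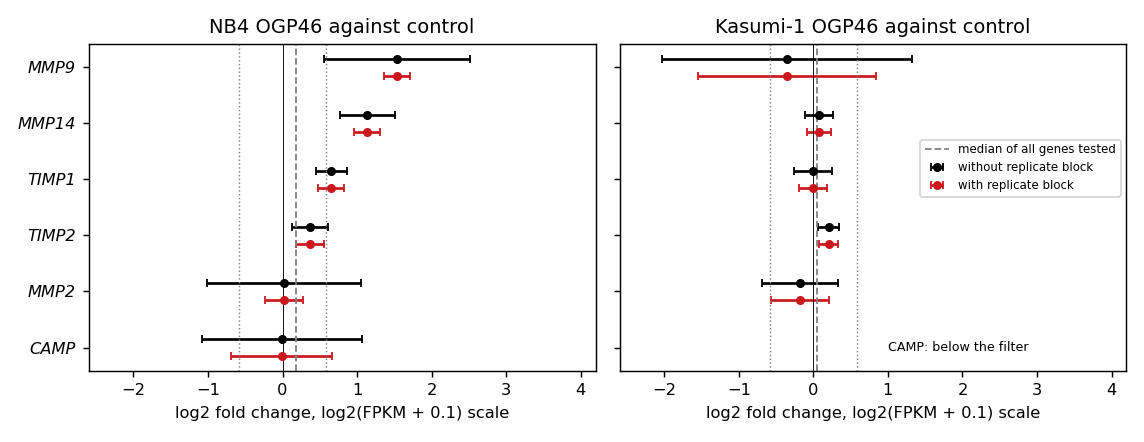
Log2 fold change (horizontal axis, log2(FPKM + 0.1) scale) of OGP46 against control for the 6 genes in NB4 (left) and Kasumi-1 cells (right). Points are limma estimates and bars 95% intervals, black without and red with the replicate number as a block. The dashed line is the median of all genes tested and the dotted lines mark the size required for a call, and the bars of MMP9 and MMP2 in NB4 cells shorten most with the block.

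TIMP2 (chr17:78852977-78925387) encodes an inhibitor that, besides blocking metalloproteinases, forms the complex through which MMP14 activates pro-MMP2. It was at 10.6, 12.0 and 12.3 FPKM in the NB4 controls 1, 2 and 3 and at 13.4, 15.5 and 16.5 FPKM with OGP46. The groups did not overlap and the 3 pairs were 1.26-fold, 1.30-fold and 1.34-fold higher, but the log2 fold change of 0.37 (SE 0.11, limma adjusted p = 0.0816) was below the size required, and 0.20 relative to the median of all genes. TIMP2 shares exons with CEP295NL on the same strand and with an antisense gene, so its FPKM may hold fragments of either.

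MMP2 (chr16:55389700-55506691) encodes gelatinase A, which is made mostly by stromal cells. It was at 1.84, 3.66 and 1.25 FPKM in the NB4 controls 1, 2 and 3 and at 1.85, 3.81 and 1.24 FPKM with OGP46. Each sample with OGP46 lay next to the control of its number, with folds of 1.01, 1.04 and 0.990, and sample 2 was the highest of both groups. The log2 fold change was 0.02 (SE 0.45, limma adjusted p = 0.980), with a 95% interval of -1.01 to 1.05 without and -0.23 to 0.27 with the block. Stromal markers were near 0, as none of COL1A1, COL1A2, COL3A1, DCN, LUM and PDGFRB exceeded 0.0830 FPKM in any sample and DCN and LUM were listed at 0 in all 12. Thus 4 of the 6 tested genes were higher with OGP46 without overlap of the groups, beside 32.7% of all genes tested.

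Markers of other cell types moved in the same NB4 samples. The summed level of 8 monocyte and macrophage genes was 12.0 to 13.1 FPKM in the NB4 controls and 21.1 to 28.2 FPKM with OGP46. Of 5 tested, 3 (CD68, ITGAX and C5AR1) were called higher, beside 1.45% of all genes tested. With the block CD14 and CSF1R were called as well, so all 5, beside 5.06%. The macrophage markers MRC1 and CD163 and the Fc receptor FCGR3A were listed at 0 in all 6 NB4 samples. With the block, 4 of the 6 promyelocyte genes (ELANE, PRTN3, AZU1 and CTSG) were called lower, and 0 without it. ELANE was at 0.504 FPKM in NB4 control 1 and at 14.5 FPKM in NB4 control 3, the sample that carried 1.26% of the Kasumi-1 signal. Its mean in the Kasumi-1 controls was 1504.6 FPKM. PRTN3, AZU1 and CTSG were highest in NB4 control 2. The part of the Kasumi-1 signal in these 4 calls was not tested. Of the T cell genes, CD3D alone was expressed in NB4 cells, at 13.5 to 20.4 FPKM in the controls and 22.5 to 34.6 FPKM with OGP46, while CD3E was at most 0.0608 FPKM and CD2 was listed at 0 in all 6. The part of these changes in the levels of MMP9, MMP14 and TIMP1 was not tested, and in bulk samples a change in the number of cells of one kind and in the RNA per cell cannot be told apart.

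In Kasumi-1 cells, none of the 5 tested genes was called with OGP46, without or with the block, while 0.0338% of the 11835 genes tested were called in either direction without it and 0.617% with it. Without the block 4 genes in all were called, against 76 higher and 67 lower at an unadjusted p below 0.05 and the same size of change. MMP14 was at 6.99, 8.46 and 7.52 FPKM in the controls 1, 2 and 3 and at 8.24, 8.15 and 7.75 FPKM with OGP46. These groups overlapped, and the log2 fold change was 0.07 (SE 0.08, limma adjusted p = 0.695), with a 95% interval of -0.11 to 0.26. TIMP1 was at 37.6, 43.4 and 30.9 FPKM in the controls and at 40.7, 35.5 and 34.7 FPKM with OGP46, and its 95% interval was -0.26 to 0.25. Both intervals lie below the size required for a call.

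TIMP2 was at 39.2, 44.1 and 42.6 FPKM in the Kasumi-1 controls and at 47.5, 48.2 and 49.2 FPKM with OGP46. All 3 samples with OGP46 were above all controls, as for 17.4% of the genes tested, but by a small amount. Its log2 fold change of 0.20 (SE 0.06) had a limma adjusted p of 0.168. MMP2 was at 0.706, 0.865 and 0.423 FPKM in the controls and at 0.539, 0.613 and 0.517 FPKM with OGP46, with overlapping groups and a log2 fold change of -0.18 (SE 0.23, limma adjusted p = 0.736).

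MMP9 was close to 0 in Kasumi-1 cells. It was at 0.0508, 1.49 and 0.0601 FPKM in the controls 1, 2 and 3 and at 0.175, 0.187 and 0.132 FPKM with OGP46. Only control 2 exceeded 1 FPKM, and it is the sample that carried 1.58% of the NB4 signal, and this share of the mean MMP9 level of the NB4 controls comes to 1.34 FPKM. In the other 5 Kasumi-1 samples, the same product was 0.174 to 0.265 FPKM, above the MMP9 level measured in each. The log2 fold change was -0.36 (SE 0.75, limma adjusted p = 0.852) with all samples and 0.76 (adjusted p = 0.222) without control 2, so its direction turned on that sample.

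**Figure D3:**
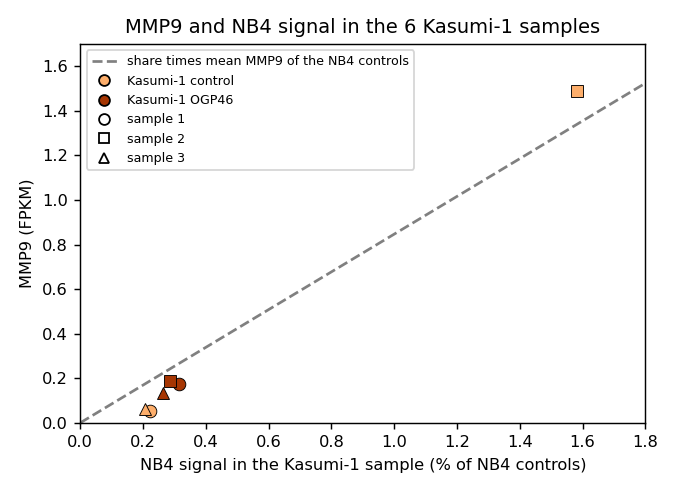
MMP9 (FPKM, vertical axis) against the share of NB4 signal estimated from 23 other genes (percent of the NB4 controls, horizontal axis) in the 6 Kasumi-1 samples. The dashed line is the share times the mean MMP9 level of the NB4 controls. Control 2, at 1.58% and 1.49 FPKM, lies apart and near the line, and the other 5 samples lie below 0.2 FPKM and under the line.

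The responses of both lines were compared as the difference between their log2 fold changes, NB4 minus Kasumi-1. Of 12309 genes tested in one limma model of the 12 samples, 0 were called at an adjusted p below 0.05, while 1225 were higher and 123 lower at an unadjusted p below 0.05. With the replicate number as a block, 1.93% of the genes were called and 2 of the 6 tested genes were among them, both higher in NB4. The difference was 1.06 for MMP14 (SE 0.19, adjusted p = 0.0976, and 0.00387 with the block). For TIMP1 it was 0.66 (SE 0.16, adjusted p = 0.174, and 0.0311 with the block). The median of all genes was 0.12. For MMP9 the difference was 1.89 (SE 1.03), with an adjusted p of 0.512 without and 0.192 with the block, and leaving out Kasumi-1 control 2 lowered it to 0.77. For TIMP2 the difference was 0.17 (adjusted p = 0.598), with a 95% interval of -0.09 to 0.43.

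The base levels of the lines were compared in the controls, which are the same samples as in the comparisons above. Untreated NB4 cells had much more MMP9 and more MMP14 and MMP2, while untreated Kasumi-1 cells had more TIMP2. Of 6 tested genes, 4 were called higher and 1 lower in NB4, beside 22.7% and 29.7% of the 12302 genes tested, and 1 of the 4, CAMP, passed the filter only through NB4. For MMP9 the Kasumi-1 controls reached a mean of 0.1 FPKM only through control 2, the sample with NB4 signal. The count is therefore no support for a difference of the 9 genes as a set. For MMP9 the log2 difference was 7.88 (SE 0.81, limma adjusted p = 2.27e-05), and 9.0 without Kasumi-1 control 2. Its size depends on the pseudocount, since Kasumi-1 controls 1 and 3 were at 0.0508 and 0.0601 FPKM, below 0.1. The difference was 5.84 with a pseudocount of 1 and 8.74 with 0.01, and it was called with both. MMP14 differed by 1.81 (SE 0.14, adjusted p = 3.01e-06) and MMP2 by 1.53 (SE 0.36, adjusted p = 0.00423). The NB4 controls lay above all Kasumi-1 controls for these 3 genes and for TIMP1, as for 34.6% of all genes tested, and below them for TIMP2, as for 43.1%.

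TIMP2 was at 11.6 ± 0.882 FPKM in untreated NB4 and at 41.9 ± 2.50 FPKM in untreated Kasumi-1 cells (SD, n = 3), a log2 difference of -1.84 (SE 0.08, limma adjusted p = 1.52e-07). TIMP1 was at 50.4 ± 3.56 and 37.3 ± 6.22 FPKM. Its log2 difference of 0.44 (SE 0.12, adjusted p = 0.00796) was below the size required, and passed it after TPM-like scaling (0.65) and after median centring (0.58). CAMP differed by 1.40 (SE 0.44, adjusted p = 0.0175), from levels of at most 0.525 FPKM and with 2 of the 3 Kasumi-1 controls listed at 0, so the size of this difference is set by the pseudocount. Its groups overlapped only in that NB4 control 1 was below Kasumi-1 control 3. The difference was 3.36 with a pseudocount of 0.01 and 0.29 with 1, where it was not called, and it was not called without Kasumi-1 control 1 or control 2 either, and was under the filter without NB4 control 3.

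The 4 groups were also put in order of mean level. For MMP9 it was 254 FPKM in NB4 with OGP46, 84.7 in NB4 controls, 0.534 in Kasumi-1 controls and 0.165 in Kasumi-1 with OGP46, and only the last 2 groups overlapped, in an order that rests on control 2. For MMP14 and TIMP1 the 2 NB4 groups and the Kasumi-1 samples were set apart, and the 2 Kasumi-1 groups overlapped. For TIMP2 all 4 groups were apart, with Kasumi-1 with OGP46 the highest and NB4 controls the lowest.

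Ratios of FPKM between enzymes and inhibitors describe the balance of their transcripts in each sample. MMP9 to TIMP1 was 2.28, 0.869 and 2.00 in the NB4 controls 1, 2 and 3 and 4.70, 1.51 and 3.50 with OGP46, so it was higher in each pair while the groups overlapped. In Kasumi-1 samples it was 0.0344 in control 2, the sample with NB4 signal, and at most 0.00526 in the other 5, with far more TIMP1 than MMP9 transcript in every sample. MMP14 to TIMP2 was 3.05, 1.86 and 2.22 in the NB4 controls and 5.35, 3.32 and 3.49 with OGP46, with no overlap. In Kasumi-1 samples this ratio was 0.158 to 0.192, so that TIMP2 exceeded MMP14 there and MMP14 exceeded TIMP2 in all NB4 samples. TIMP1 to TIMP2 was 4.08 to 4.52 in the NB4 controls, 5.16 to 5.43 with OGP46 and 0.704 to 0.984 in the Kasumi-1 samples. These are ratios of transcripts and say nothing of secreted or active protein.

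**Figure D4:**
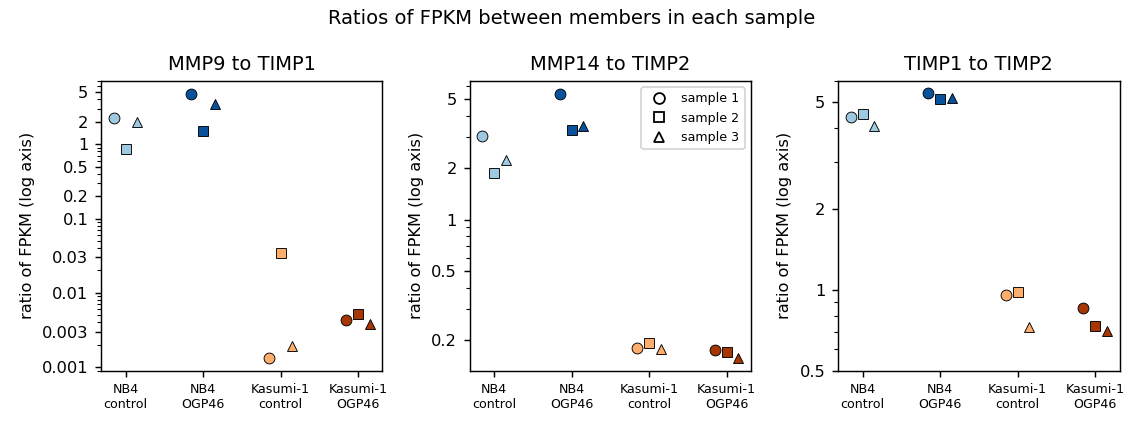
Ratios of FPKM (vertical log axes) of MMP9 to TIMP1, MMP14 to TIMP2 and TIMP1 to TIMP2 in the 12 samples, by group on the horizontal axis. Points are samples, with circle, square and triangle for sample numbers 1, 2 and 3. All NB4 samples lie above all Kasumi-1 samples in each plot, and Kasumi-1 control 2 is the highest Kasumi-1 sample for MMP9 to TIMP1, at 0.0344.

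Other genes of late granules were read from a list of 16. Of these, 6 stayed below 0.1 FPKM in all 12 samples, and CEACAM8 and ARG1, both markers of mature or maturing neutrophils, were listed at 0 throughout. In NB4 cells 8 were tested, and 2 were called higher with OGP46 and 0 lower, beside 1.45% and 0.111% of all genes tested. FCN1, a ficolin of granulocytes and monocytes, went from 1.54 ± 0.342 to 3.96 ± 0.422 FPKM (SD, n = 3; log2 fold change 1.33, limma adjusted p = 0.0278). QPCT, glutaminyl cyclase, went from 0.844 ± 0.0892 to 2.06 ± 0.578 FPKM (log2 fold change 1.16, adjusted p = 0.0383). The median log2 fold change of the 8 genes was 0.64. With the block, MMP25 (0.68), a membrane-anchored metalloproteinase of neutrophils, and ADAM8 (0.60) were called higher as well, so 4 of the 8, beside 5.06% of all genes tested. CHI3L1 (-0.70), a chitinase-like protein of specific granules, was called lower with the block, beside 135 of all 11750 genes tested. In Kasumi-1 cells 4 of the 16 were tested and none was called. Between untreated lines, 7 of 8 tested were called higher in NB4, beside 22.7% of all genes tested, but CHI3L1, FCN1, QPCT and PTX3 had means below 0.1 FPKM in the Kasumi-1 controls and passed the filter only through NB4, so the count is no support for a difference of the list. OLFM4, a specific granule glycoprotein, was called lower, at 0 in all NB4 samples and 0.205 ± 0.0740 FPKM in the Kasumi-1 controls (SD, n = 3). It passed the filter only through Kasumi-1. The late granule genes seen in NB4 cells were thus a part of the list, with LTF, LCN2, MMP8 and OLFM4 listed at or near 0 there.

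**Figure D5:**
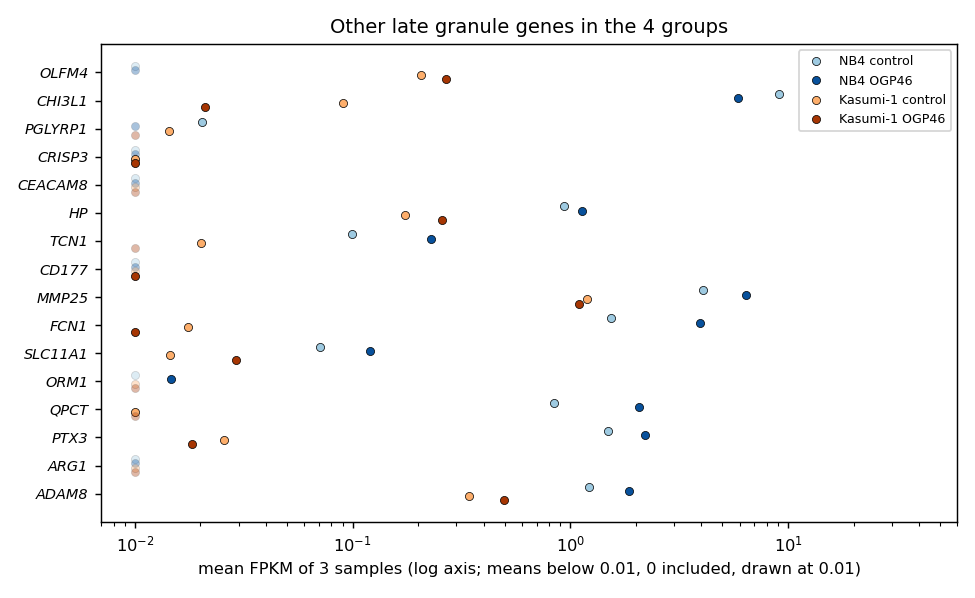
Mean FPKM (horizontal log axis, n = 3 samples a group) of the 16 other late granule genes in the 4 groups. Means below 0.01 FPKM, 0 included, are drawn at 0.01, and faint points are at 0. FCN1 and QPCT are higher in NB4 cells with OGP46 than in their controls, at 3.96 against 1.54 and 2.06 against 0.844 FPKM, and CEACAM8 and ARG1 are at 0 in all groups.

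Of 19 other metalloproteinase genes, 8 were listed at 0 in all samples (MMP3, MMP7, MMP10, MMP12, MMP13, MMP20, MMP26 and MMP27), 11 stayed below 0.1 FPKM, and the highest value of any was 9.89 FPKM. Beside these 19 and MMP2 and MMP8, MMP9 and MMP14 had the highest levels in every NB4 sample. Of the 4 tested in NB4 cells, 0 were called with OGP46 without the block. With it 1 was called higher, MMP25, which is also in the list above, beside 5.06% of all genes tested. In Kasumi-1 cells 6 were tested and none was called. Between untreated lines MMP25 was called higher in NB4, and MMP11, MMP28, MMP15 and MMP17 lower, with log2 differences of -2.88, -2.64, -2.14 and -0.62. These are 1 and 4 of 6 tested, beside 22.7% and 29.7% of all genes tested. MMP11 and MMP28 had means of 0.0146 and 0.00995 FPKM in the NB4 controls. They passed the filter only through Kasumi-1, so the size of their differences depends on the pseudocount.

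Among 12 other inhibitors, activators and receptors of the system, 7 were tested in NB4 cells and 0 were called without the block. With it 1 of the 7, THBS1 (thrombospondin), was called higher (log2 fold change 2.09), beside 5.06% of all genes tested. THBS1 was at 4.26, 0.0928 and 1.96 FPKM in the NB4 controls 1, 2 and 3 and at 23.1, 0.491 and 9.62 FPKM with OGP46. These groups overlapped, and sample 2 was far lower than the others in both. TIMP4 was listed at 0 in all samples. None of 6 tested was called in Kasumi-1 cells. Between untreated lines, THBS1 was called higher in NB4, and RECK, a membrane-anchored inhibitor of metalloproteinases, BSG, an inducer of metalloproteinases, CD44, a docking protein of MMP9, and FPR2, a receptor of the cathelicidin peptide, lower, with log2 differences of -1.25, -1.10, -1.03 and -2.68. These are 1 and 4 of 7 tested, beside 22.7% and 29.7% of all genes tested. THBS1 had a mean of 0.0114 FPKM in the Kasumi-1 controls and passed the filter only through NB4, so its call is no support for a difference.

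Of 8 regulators of granule genes, 1, CEBPB, was called higher in NB4 cells with OGP46, beside 1.45% of all genes tested. CEBPB went from 10.9 ± 1.51 to 19.1 ± 1.22 FPKM (SD, n = 3; log2 fold change 0.82, limma adjusted p = 0.0289). None of 7 tested was called in Kasumi-1 cells. Between untreated lines, CEBPA and GATA1 were called higher in NB4 and GFI1 and CUX1 lower, with log2 differences of 3.23, 2.23, -1.77 and -1.02. These are 2 and 2 of 8 tested, beside 22.7% and 29.7% of all genes tested. GATA1 had a mean of 0.397 FPKM in the NB4 controls and was listed at 0 in all Kasumi-1 samples. It passed the filter only through NB4, so the size of its difference is set by the pseudocount. The median for the 8 regulators in NB4 cells with OGP46 was 0.10, beside 0.18 for all genes tested.

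For the 5 genes with a group mean of at least 1 FPKM (not LTF, LCN2, CAMP and MMP8), the genes most like each in their profile over the 12 samples were sought among 10554 genes at that level, by the root mean square of the difference between centred log2 profiles. For MMP14 they were ANPEP (0.209), FCER1G (0.210) and TRIB2 (0.220). ANPEP, the surface antigen CD13, had means of 66.9 and 107 FPKM in NB4 controls and OGP46 samples and of 15.6 and 16.6 FPKM in the Kasumi-1 groups. For MMP9 they were LGALS1 (0.544), VIM (0.589) and CYP1B1 (0.630), which were less close. In Kasumi-1 control 2, the sample with NB4 signal, LGALS1 was at 9.97 and VIM at 3.43 FPKM, against 1.25 to 2.36 and 0.337 to 0.643 FPKM in the other 5 Kasumi-1 samples. Without that sample, a setting added after the data were seen, the same 3 genes were most like MMP9 (0.567, 0.615 and 0.649). For TIMP1 they were RIPOR1 (0.116), RIN3 (0.131) and LNX2 (0.135), for TIMP2 SELENON (0.0973), ERLIN2 (0.0994) and SUCO (0.111), and for MMP2 MST1 (0.301), ASRGL1 (0.345) and MVB12B (0.349). The 12 points share 2 lines and 4 groups, and the likeness is a description.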

How the data were processed

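The authors deposited 1 table of FPKM values for each of the 12 samples, with 20030 rows each. The submitters' processing notes list Trimmomatic, HISAT2, Cufflinks, HTSeq and the genome build hg38, and versions, annotation and strand setting are not given in the sources used here. Libraries were made from poly(A) RNA with a stranded kit. Rows whose symbol was a date (27 a table) were removed. The lowest deposited FPKM show that fragments were shared out by an estimate (632 values lie above 0 and below 1e-04), so no read counts were recovered and precision rests on 3 samples a group. Samples were grouped by line and treatment as labelled.

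Values were compared as log2(FPKM + 0.1) with limma 3.58.1 in R 4.3.3, with moderated variances that follow a trend on the mean level, over genes whose mean reached 0.1 FPKM in the samples compared. The 3 samples of 2 groups allow an exact two-sided permutation p of no less than 0.1, so none was used. The 9 genes and all gene lists were chosen with earlier results of these data known. All 9 genes are named, list genes only where called (at most 4 a list, by size of change), markers by list, and the 3 genes most like each gene. Any other gene, such as those listed at 0, was named after its values were seen.

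Deviations from group means correlated between same-numbered OGP46 and control samples, with r of 0.355, 0.622 and 0.197 in NB4 cells (11750 genes) and 0.218, 0.157 and 0.395 in Kasumi-1 cells (11835 genes), so the number was used as a block in an alternative fit. The pairing comes from this check and from the numbers in the labels. Between the untreated lines r was -0.0487, 0.0176 and -0.00475, so same-numbered samples are not read as pairs there. The block was fitted there too, and its results are not relied on. The signal of the other line was estimated from genes at 20 FPKM or more in that line's controls and at most 0.5% of it in the lowest sample of the line examined. Other alternatives were pseudocounts of 1 and 0.01, no filter, a minimum mean of 1 FPKM, TPM-like scaling, median centring, subtraction of the other line's signal and leaving out each sample. Fits were tested on simulated data. Gene positions came from GENCODE 29 and start-site windows from RefSeq (GRCh38.p14).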

Additional observations from a re-analysis of the deposited data

Results flagged for a closer look

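MMP14 and TIMP1 were singled out because OGP46 moved them differently in the lines by a test of the difference itself, with the replicate number as a block. For MMP14, the NB4 minus Kasumi-1 difference of the log2 fold changes was 1.065 (limma adjusted p = 0.00387), and MMP14 was upward in 3 of 3 NB4 pairs, with folds between 2.11 and 2.31. For TIMP1, it was 0.6579 (limma adjusted p = 0.0311), and upward in 3 of 3 NB4 pairs, with folds between 1.48 and 1.71. Without the block neither difference passed (adjusted p = 0.0976 and 0.174).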

How the results depend on the processing

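Limits come from 3 samples a group, unknown depth and 1 control of each line that carried signal of the other. With OGP46 in NB4 cells, 183 genes were called in all, 170 higher and 13 lower, against 117 with a pseudocount of 1, 6 with no filter, 0 with TPM-like scaling and 0 with median centring (284 and 159 higher, 177 and 252 lower at an unadjusted p below 0.05 and the same size). With the replicate block 730 were called (595 higher, 135 lower), 391 with block and median centring (188 and 203), 452 with block and TPM-like scaling (310 and 142) and 760 with block and subtraction of the Kasumi-1 signal. Of the 9 genes, 2 were called with the settings of the report, 3 with the block alone, and 0 with no filter, TPM-like scaling or median centring. Leaving out 1 sample gave 0 to 396 genes and 0 to 3 of the 9.

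In Kasumi-1 cells 4 genes were called, and 2 with a pseudocount of 1, 1 with no filter, 24 with a minimum of 1 FPKM, 18 with TPM-like scaling (13 higher, 5 lower), 18 with median centring (4 and 14), 73 with the replicate block (32 and 41), 93 with block and median centring (26 and 67) and 12 after subtraction of the NB4 signal. Leaving out 1 sample gave 0 to 11, and 0 of the 9 in each fit. After subtraction MMP9 was under the filter. Between untreated lines 5 of the 9 were called and 3 with no filter, with 4 to 5 when 1 sample was left out, and the calls of all genes, 2790 higher and 3659 lower, became 3595 and 2994 with TPM-like scaling and 3330 and 3162 with median centring. For the difference between lines in response, 0 genes were called, and 14 with a pseudocount of 1, 14 with no filter, 237 with the replicate block, 144 with block and median centring (97 higher, 47 lower) and 247 with block and subtraction of the other line's signal, among them 2, 2 and 3 of the 9 in the block fits. The third was MMP9, for which the subtracted signal exceeds the level measured in 5 of the 6 Kasumi-1 samples, so that this call is not relied on. Leaving out 1 sample gave 0 to 1 genes and 0 of the 9.

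Direction changed for MMP2, CAMP, MMP9 and TIMP1, each in comparisons where the gene was not called. In NB4 cells MMP2 was at -0.10 with TPM-like scaling and -0.20 with median centring, with and without the replicate block, and at -0.41 to 0.43 with 1 sample left out, and CAMP at -0.36 to 0.42. In Kasumi-1 cells TIMP1 was at 0.0150 with TPM-like scaling, at 0.00192 after subtraction and at -0.13 to 0.11 with 1 sample left out, MMP2 at -0.43 to 0.0119 and MMP9 at -0.94 to 0.76. In the difference between lines, leaving out 1 sample gave -0.40 to 0.41 for CAMP and -0.23 to 0.60 for MMP2. Over single genes and alternatives, 330 values kept their direction and call, 23 lost a call, 15 gained one and 24 changed direction. Over all samples and with the other settings of the report kept, the replicate block changed the calls of MMP9 in NB4 cells and of MMP14 and TIMP1 in the difference between lines. No other call of the 9 genes changed. With TPM-like scaling or median centring, the block also changed the call of MMP14 in NB4 cells. With subtraction of the other line's signal, it also changed that of MMP9 in the difference between lines. The cause of these changes was not tested.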
